A study of Mus musculus with 30 samples.

Results

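The Fc gamma receptor genes are described here in whole B16 tumors that expressed an empty vector, IFNα4 or IFNα9. The members are the receptor genes Fcgr1, Fcgr2b, Fcgr3 and Fcgr4 and the adaptor gene Fcer1g, picked by gene symbol with no threshold on a measured value. These 5 genes are 5 of the 39676 genes counted. All 5 had a row, and all 5 were tested, as were the 15926 genes whose mean count over the tumors was 10 or more.

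The tumors grew from B16-F10 melanoma cells placed under the skin of female C57BL/6 mice and were taken whole on day 8. B16-GFP tumors carried the empty GFP vector, B16-IFNA4 tumors expressed IFNα4 and B16-IFNA9 tumors expressed IFNα9, with 10 tumors of each type. All 3 types, the control included, also carried the herpes simplex virus glycoprotein B, luciferase, fluorescent proteins and puromycin resistance. The interferons came from retroviral vectors in the tumor cells, which were sorted by fluorescence to obtain stable lines. The sources used here do not say whether a line is 1 clone. The host mice kept their own immune cells and their own IFN-I genes.

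Fc gamma receptors bind the constant part of IgG and let leukocytes react to cells and particles that antibody has coated. FcγRI, FcγRIII and FcγRIV are activating receptors that assemble with the FcR gamma chain, whose ITAM is phosphorylated by Src family kinases and then recruits Syk. FcγRIIB is the inhibitory receptor. Its ITIM recruits the lipid phosphatase SHIP-1, which limits the signal of the activating receptors. In tumors these receptors sit mainly on macrophages, monocytes, dendritic cells, neutrophils and NK cells. NK cells of the mouse carry FcγRIII and B cells carry FcγRIIB.

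Fcgr1 encodes FcγRI, the high-affinity receptor, and lies on the minus strand of chromosome 3 (GRCm38 chr3:96282909-96293969). The other members lie near each other on chromosome 1. Fcgr2b encodes FcγRIIB (chr1:170958617-170976547, minus strand). Fcgr4 encodes FcγRIV (chr1:171018920-171029761, plus strand) and Fcgr3 encodes FcγRIII (chr1:171051174-171064935, minus strand). Fcer1g encodes the FcR gamma chain (chr1:171229572-171234365, minus strand).

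The stretches just upstream of Fcgr1 and Fcgr4 are shown because these were the receptor genes with the largest differences between tumor types. Each is the 150 bases from 156 to 7 bases before the RefSeq start (GRCm38.p6), printed 5′ to 3′ on the strand of the gene. Capitals mark the GAS motif TTCNNNGAA, the core of the ISRE GAAANNGAA and the PU.1 core GAGGAA, searched on both strands. The Fcgr1 stretch lies at chr3:96293976-96294125 on the minus strand, and the Fcgr4 stretch at chr1:171018770-171018919 on the plus strand.
Fcgr1: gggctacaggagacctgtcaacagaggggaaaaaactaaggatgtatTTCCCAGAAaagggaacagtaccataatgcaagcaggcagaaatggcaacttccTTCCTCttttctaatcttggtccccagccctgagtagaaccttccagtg
Fcgr4: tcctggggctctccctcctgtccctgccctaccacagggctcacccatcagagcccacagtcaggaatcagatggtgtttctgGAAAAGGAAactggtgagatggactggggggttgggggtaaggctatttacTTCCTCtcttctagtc
The Fcgr1 window held a GAS motif 109 to 101 bases before the start and a PU.1 core 55 to 50 bases before it. The Fcgr4 window held an ISRE core 73 to 65 bases before the start and a PU.1 core 22 to 17 bases before it. A PU.1 core was also found in the Fcgr3 window, and none of the 3 motifs was found in those of Fcgr2b and Fcer1g. Over the 250 bases before the start of 32536 RefSeq promoters, the GAS motif occurred in 7.04%, the ISRE core in 7.15% and the PU.1 core in 23.4%. These are matches of letters, with no measurement of binding.

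Fcgr2b and Fcgr3 share runs of identical coding sequence of 129, 113 and 71 bases, the first of which crosses an exon junction. The 113-base run lies within 1 exon of each gene and is printed because a read of 50 bases from it has no base that tells the genes apart.
Fcgr2b chr1:170966560-170966672 and Fcgr3 chr1:171054053-171054165, both minus strand: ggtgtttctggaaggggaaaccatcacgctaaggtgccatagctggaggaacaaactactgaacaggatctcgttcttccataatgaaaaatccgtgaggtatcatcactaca
Of all 50-base stretches in their transcripts, 9.58% of 1733 in Fcgr3 and 4.38% of 5685 in Fcgr2b also occur in another gene. Fcgr1, Fcgr4 and Fcer1g share none. How the counting treated reads that fit several places is not given in the sources used here, so the levels of Fcgr2b and Fcgr3 are uncertain by what such reads could add. The antisense gene Gm38204 overlaps Fcgr2b exons and had 0 to 4 counts in each tumor.

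The libraries held 14598517 to 19788383 counts each. Ifna4 had 81 to 188 counts in every B16-IFNA4 tumor and 0 in all others, and Ifna9 had 55 to 148 counts in every B16-IFNA9 tumor and 0 in all others. Levels are given as CPM (the field's usual scaling of counts to library size), after TMM normalization. Among the tumors of each type, B16-GFP tumor 7, B16-IFNA4 tumor 8 and B16-IFNA9 tumor 5 had the lowest level of all 5 members. They also had the lowest level of Ptprc, the pan-leukocyte gene CD45. The mean Ptprc level was 80.6 ± 29.5 CPM in B16-GFP (SD, n = 10, as for all means below), 506.9 ± 140.1 CPM in B16-IFNA4 and 354.3 ± 105.9 CPM in B16-IFNA9 tumors. In whole tumors, more cells of a type and more RNA per cell cannot be told apart.

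**Figure D1:**
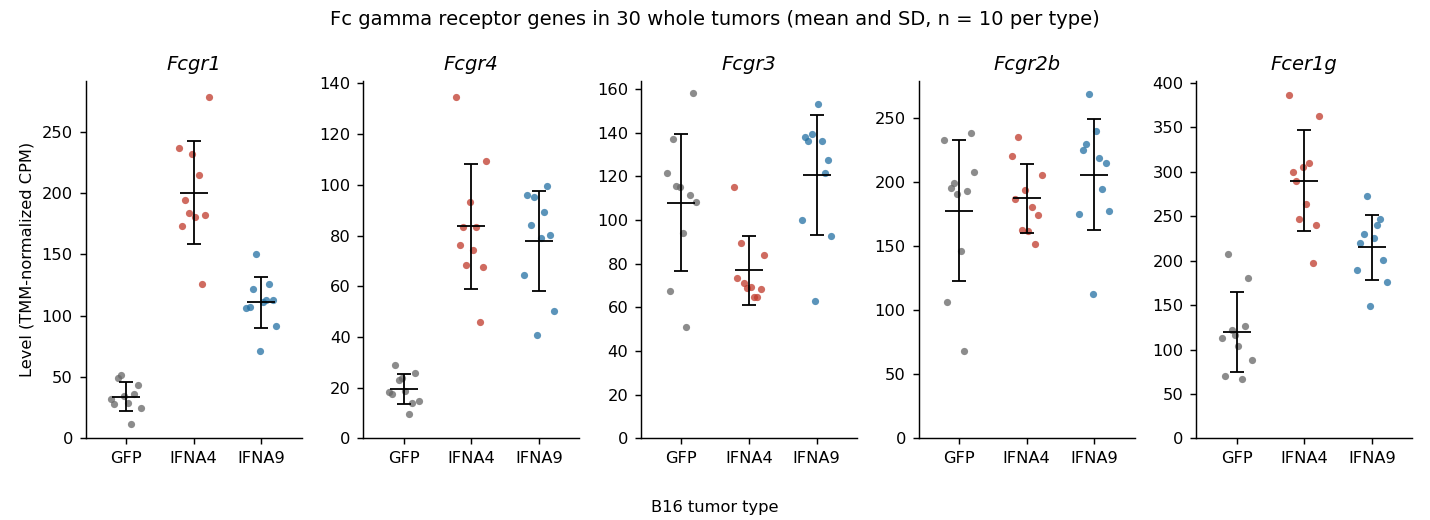
Levels of the 5 genes in each of the 30 tumors (y axis, CPM; x axis, tumor type; black bars, mean and SD). Every B16-IFNA4 and B16-IFNA9 tumor lies above every B16-GFP tumor for Fcgr1 and Fcgr4, while the 3 types overlap for Fcgr2b and Fcgr3.

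Fcgr1 and Fcgr4 were higher in both interferon-expressing tumor types than in B16-GFP tumors, with no overlap between tumors. Fcer1g was also higher in both. Fcgr3 was lower in B16-IFNA4 tumors than in either other type, and Fcgr2b did not pass the test in any comparison. Levels were compared with edgeR's quasi-likelihood test over all genes, and adjusted p is the Benjamini-Hochberg value over the 15926 genes. Of the 5 members, 3 rose and 1 fell in B16-IFNA4 against B16-GFP tumors, beside 31.3% and 34.1% of all genes tested. In B16-IFNA9 against B16-GFP tumors 3 rose and 0 fell, beside 26.9% and 28.9%. Between B16-IFNA9 and B16-IFNA4 tumors 1 was higher and 1 lower in B16-IFNA9, beside 10.5% and 7.25%. The median log2 difference of the members was 1.28, 0.85 and -0.10 in these comparisons, against 0.0092, -0.0031 and -0.0055 over all genes tested.

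Fcgr1 ran from 12.0 to 51.8 CPM in B16-GFP tumors, with a median of 33.2. It ran from 126.2 to 278.1 CPM in B16-IFNA4 tumors (median 189.1) and from 71.3 to 150.7 CPM in B16-IFNA9 tumors (median 111.9). Both interferon types lay wholly above the control, and 9 of 10 B16-IFNA9 tumors lay below every B16-IFNA4 tumor. The mean was 34.1 ± 11.9 CPM in B16-GFP, 200.2 ± 42.0 CPM in B16-IFNA4 and 111.1 ± 20.9 CPM in B16-IFNA9 tumors. The log2 difference from B16-GFP was 2.55 in B16-IFNA4 tumors (SE 0.18, 5.86-fold, edgeR adjusted p = 4.63e-13) and 1.70 in B16-IFNA9 tumors (SE 0.175, 3.25-fold, adjusted p = 3.14e-09). Fcgr1 was lower in B16-IFNA9 than in B16-IFNA4 tumors, with a log2 difference of -0.85 (SE 0.17, edgeR adjusted p = 0.000725).

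Fcgr4 rose 4.29-fold in B16-IFNA4 and 3.99-fold in B16-IFNA9 tumors. It ran from 9.45 to 29.1 CPM in B16-GFP tumors (median 18.5), from 46.0 to 134.7 CPM in B16-IFNA4 tumors (median 79.7) and from 41.0 to 99.5 CPM in B16-IFNA9 tumors (median 82.2). No tumor with an interferon overlapped the control, and the 2 interferon types overlapped. The means were 19.5 ± 6.02, 83.6 ± 24.5 and 77.9 ± 19.9 CPM. The log2 difference from B16-GFP was 2.10 in B16-IFNA4 tumors (SE 0.19, edgeR adjusted p = 9.52e-11) and 2.00 in B16-IFNA9 tumors (SE 0.189, adjusted p = 5.94e-10). Between the interferon types it was -0.10, with a 95% interval from -0.47 to 0.27 (edgeR adjusted p = 0.749). Over all genes tested, every B16-IFNA4 tumor lay above every B16-GFP tumor for 8.5%, and every B16-IFNA9 tumor for 4.44%.

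Fcgr3 went the other way in B16-IFNA4 tumors. It ran from 51.1 to 158.3 CPM in B16-GFP tumors (median 113.3), from 64.7 to 115.3 CPM in B16-IFNA4 tumors (median 70.4) and from 62.8 to 153.2 CPM in B16-IFNA9 tumors (median 131.7). All 3 types overlapped, and the B16-IFNA4 tumors sat in the lower part of the range. The means were 108.0 ± 31.2, 77.0 ± 15.7 and 120.7 ± 27.5 CPM. In B16-IFNA4 tumors Fcgr3 fell by 0.49 on the log2 scale against B16-GFP (SE 0.159, 1.4-fold, edgeR adjusted p = 0.00832). In B16-IFNA9 tumors it was 0.65 higher than in B16-IFNA4 tumors (SE 0.159, 1.57-fold, adjusted p = 0.00463), and 7 of 10 lay above every B16-IFNA4 tumor. Against B16-GFP the log2 difference in B16-IFNA9 tumors was 0.16, with an interval from -0.17 to 0.49 (edgeR adjusted p = 0.4).

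Fcgr2b, the inhibitory receptor gene, ran from 68.0 to 238.1 CPM in B16-GFP tumors (median 193.8), from 151.4 to 234.7 CPM in B16-IFNA4 tumors (median 183.5) and from 112.9 to 268.4 CPM in B16-IFNA9 tumors (median 216.4). The types overlapped throughout. The means were 177.6 ± 54.6, 187.0 ± 26.8 and 205.5 ± 43.1 CPM. The log2 difference was 0.07 between B16-IFNA4 and B16-GFP tumors (95% interval -0.26 to 0.40, edgeR adjusted p = 0.694) and 0.21 between B16-IFNA9 and B16-GFP tumors (-0.12 to 0.54, adjusted p = 0.267). It was 0.14 between B16-IFNA9 and B16-IFNA4 tumors (-0.19 to 0.47, adjusted p = 0.613).

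Fcer1g, the gene of the shared adaptor, ran from 67.2 to 207.4 CPM in B16-GFP tumors (median 114.7), from 196.9 to 386.1 CPM in B16-IFNA4 tumors (median 294.2) and from 148.9 to 272.9 CPM in B16-IFNA9 tumors (median 222.8). Of 10 tumors, 9 of B16-IFNA4 and 6 of B16-IFNA9 lay above every control. The means were 119.6 ± 44.6, 290.0 ± 56.7 and 214.9 ± 36.6 CPM. Fcer1g was higher than in B16-GFP by a log2 difference of 1.28 in B16-IFNA4 tumors (SE 0.162, 2.42-fold, edgeR adjusted p = 7.92e-08) and of 0.85 in B16-IFNA9 tumors (SE 0.161, 1.8-fold, adjusted p = 6.58e-05). Between the interferon types the log2 difference was -0.43 (SE 0.16, edgeR adjusted p = 0.0589), which did not pass. It passed when any of B16-GFP tumors 3, 7 or 9 (adjusted p = 0.0334, 0.0273 and 0.0489) or B16-IFNA4 tumor 8 (adjusted p = 0.0377) was left out, and in a fit of the 20 interferon tumors alone (adjusted p = 0.00635).

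Without B16-GFP tumor 7, the tumor lowest in every member, the control means over 9 tumors were 36.6 ± 9.57 CPM for Fcgr1, 20.6 ± 5.18 CPM for Fcgr4 and 114.3 ± 25.3 CPM for Fcgr3. The log2 difference between B16-IFNA4 and B16-GFP tumors was then 2.47 for Fcgr1, 2.04 for Fcgr4 and 1.23 for Fcer1g, and Fcgr3 fell by 0.55.

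**Figure D2:**
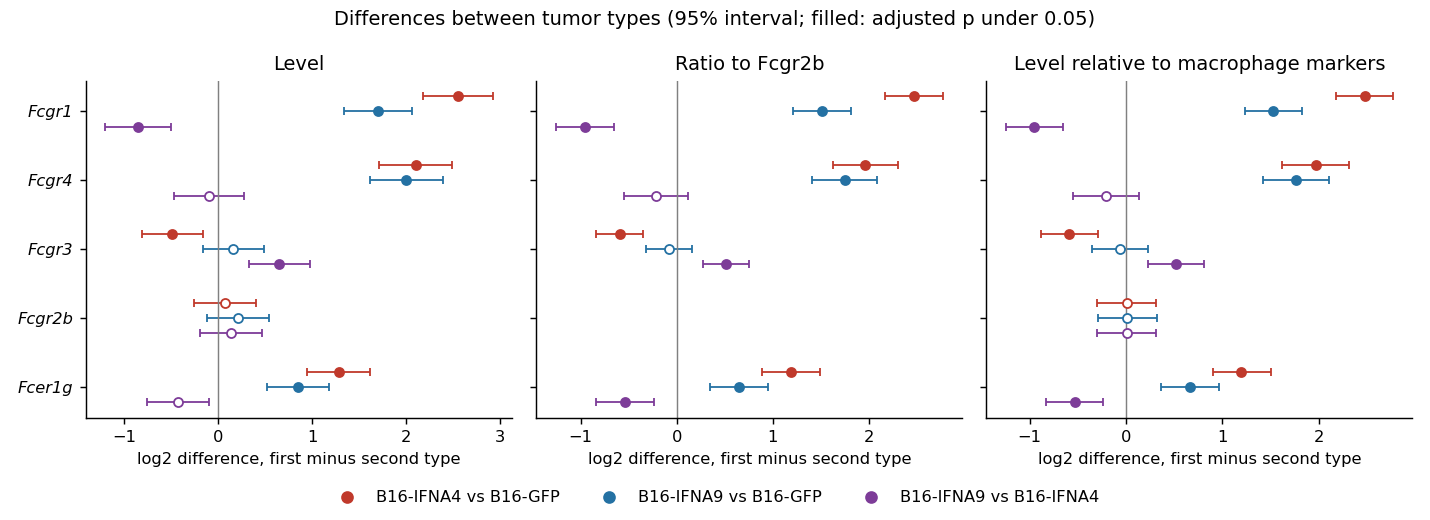
Log2 differences between tumor types with 95% intervals (x axis) for the 5 genes (y axis), as levels, as ratios to Fcgr2b and relative to 9 macrophage markers; filled points have an adjusted p under 0.05. Fcgr1 and Fcgr4 stand at 1.5 or more against B16-GFP in all 3 panels, and Fcgr3 lies below 0 in B16-IFNA4 against B16-GFP tumors.

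Within the family, the ratio of each activating gene to Fcgr2b was taken in each tumor, which removes the depth of the library. Per Fcgr2b count there were 0.196 ± 0.0498 Fcgr1 counts in B16-GFP tumors (range 0.119 to 0.266). In B16-IFNA4 tumors there were 1.07 ± 0.168 (0.830 to 1.36) and in B16-IFNA9 tumors 0.548 ± 0.063 (0.465 to 0.648). The 3 types did not overlap in this ratio. Counts of genes of unequal length make such a ratio comparable between tumors but not between genes.

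Per Fcgr2b count there were 0.115 ± 0.0324 Fcgr4 counts in B16-GFP, 0.443 ± 0.0887 in B16-IFNA4 and 0.379 ± 0.0607 in B16-IFNA9 tumors. The control range, 0.0716 to 0.164, lay below both interferon types, which overlapped at 0.304 to 0.612 and 0.284 to 0.511. For Fcgr3 the ratio was 0.621 ± 0.0742, 0.411 ± 0.0485 and 0.586 ± 0.043. For Fcer1g it was 0.698 ± 0.199, 1.55 ± 0.189 and 1.06 ± 0.133. The B16-IFNA4 tumors thus had the highest ratio of Fcgr1, Fcgr4 and Fcer1g to Fcgr2b by their means and the lowest ratio of Fcgr3.

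The same ratios were tested by limma on log2 CPM for all 15925 other genes tested. In B16-IFNA4 against B16-GFP tumors the ratio to Fcgr2b rose for Fcgr1 (log2 difference 2.47, limma adjusted p = 1.31e-16), Fcgr4 (1.96, adjusted p = 1.59e-12) and Fcer1g (1.19, adjusted p = 2.8e-08). It fell by 0.59 for Fcgr3 (adjusted p = 0.000129). Of all genes tested, 20.3% rose and 24.7% fell relative to Fcgr2b. No B16-GFP tumor reached any B16-IFNA4 tumor for Fcgr1, Fcgr4 and Fcer1g, as for 5.54% of genes in that direction.

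In B16-IFNA9 against B16-GFP tumors the ratio rose for Fcgr1 (1.51, limma adjusted p = 1.88e-10), Fcgr4 (1.75, adjusted p = 6.98e-11) and Fcer1g (0.65, adjusted p = 0.000983), beside 12.2% of all genes tested. Fcgr1 and Fcgr4 did not overlap, as for 3.07% of genes. For Fcgr3 the log2 difference was -0.08, with a 95% interval from -0.32 to 0.16 (adjusted p = 0.617). The median gene shifted by -0.12 relative to Fcgr2b in B16-IFNA4 and by -0.24 in B16-IFNA9 against B16-GFP tumors. All rises named here are larger than those shifts in size.

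The interferon types differed in the ratios of 3 genes. In B16-IFNA9 against B16-IFNA4 tumors the ratio to Fcgr2b was lower for Fcgr1 (-0.96, limma adjusted p = 2.97e-05) and Fcer1g (-0.54, adjusted p = 0.0183), beside 5.41% of genes. It was higher for Fcgr3 (0.51, adjusted p = 0.00487), beside 1.23%. Every B16-IFNA9 tumor lay below every B16-IFNA4 tumor for Fcgr1, as for 0.923% of genes. For Fcgr4 the log2 difference was -0.22, with an interval from -0.55 to 0.12 (adjusted p = 0.566). The median gene shifted by -0.12 in this comparison.

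**Figure D3:**
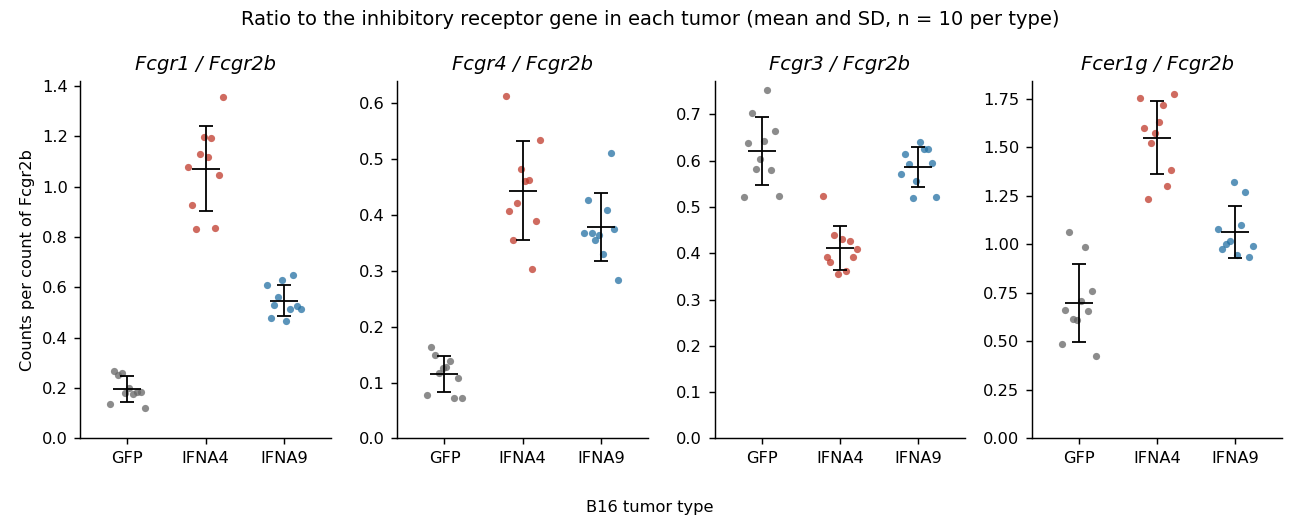
Counts per Fcgr2b count in each tumor for Fcgr1, Fcgr4, Fcgr3 and Fcer1g (y axis; x axis, tumor type; black bars, mean and SD). The 3 tumor types are separate for Fcgr1, with means of 0.196, 1.07 and 0.548.

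Per kilobase of the longest coding transcript, which allows genes to be compared, B16-GFP tumors held 80.2 CPM of Fcgr3, 50.1 of Fcgr2b, 15.5 of Fcgr4 and 13.2 of Fcgr1. In B16-IFNA4 tumors the order was Fcgr1 at 77.3, Fcgr4 at 66.6, Fcgr3 at 57.1 and Fcgr2b at 52.8. In B16-IFNA9 tumors it was Fcgr3 at 89.6, Fcgr4 at 62.0, Fcgr2b at 58.0 and Fcgr1 at 42.9. Fcer1g lay above every receptor gene in these means, at 175.1, 424.5 and 314.7 CPM per kilobase. In B16-IFNA4 tumors each receptor gene differed from the next in the order by less than the SD between tumors of the higher one, which was 16.2 for Fcgr1, 19.5 for Fcgr4 and 11.6 for Fcgr3. The same held for Fcgr4 and Fcgr1 in B16-GFP tumors (SD of Fcgr4 4.79) and for Fcgr4 and Fcgr2b in B16-IFNA9 tumors (SD of Fcgr4 15.8). These SDs are of single genes, while the genes varied together (Fcgr1 with Fcgr4 r = 0.912 in B16-IFNA4 tumors). They therefore do not measure how steady the order is within a tumor. With the lengths of all annotated exons Fcgr2b was at 30.7, 32.3 and 35.5 CPM per kilobase in the 3 types. It then lay below Fcgr1 in B16-IFNA9 tumors, so the order of these 2 genes turned. In B16-IFNA4 tumors Fcgr3 was then at 44.3, and its gaps to Fcgr4 and to Fcgr2b were larger than the SDs given above.

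As a share of the summed per-kilobase level of the 4 receptor genes, Fcgr1 made up 8.26% ± 1.67 in B16-GFP, 30.5% ± 2.77 in B16-IFNA4 and 17.2% ± 1.78 in B16-IFNA9 tumors. Fcgr4 made up 9.94% ± 2.03, 25.8% ± 2.73 and 24.4% ± 2.37. Fcgr3 made up 50.6% ± 2.16, 22.7% ± 2.61 and 35.4% ± 1.99, with no overlap between any types. A share also falls when other genes rise. The mean Fcgr3 level itself was not lower in B16-IFNA9 than in B16-GFP tumors (120.7 and 108.0 CPM). Fcgr2b made up 31.3% ± 3.16, 21.1% ± 2.16 and 23.0% ± 1.45. The share of Fcgr3 was thus more than 50% on average in the control and the share of Fcgr1 was the largest of the 4 in B16-IFNA4 tumors. With the lengths of all annotated exons in place of the longest transcript, Fcgr2b made up 25.0%, 14.9% and 17.0%.

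**Figure D4:**
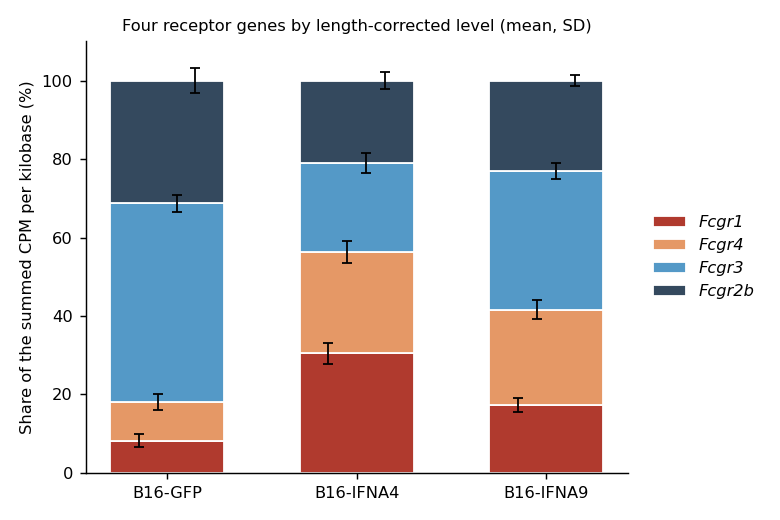
Mean share of each receptor gene in the summed per-kilobase level of the 4 receptor genes, in percent (y axis), by tumor type (x axis), with SD as error bars. The share of Fcgr3 is 50.6% in B16-GFP, 22.7% in B16-IFNA4 and 35.4% in B16-IFNA9 tumors, and that of Fcgr1 is 8.26%, 30.5% and 17.2%.

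The mean log2 ratio of the 3 activating receptor genes to Fcgr2b was -2.08 ± 0.30 in B16-GFP tumors (range -2.60 to -1.72). It was -0.80 ± 0.18 in B16-IFNA4 tumors (-1.07 to -0.51) and -1.02 ± 0.12 in B16-IFNA9 tumors (-1.24 to -0.76). Both interferon types lay wholly above the control, and they overlapped each other. The differences of the means were 1.28 and 1.06 from B16-GFP and -0.22 between the interferon types. This mean weights Fcgr1, Fcgr3 and Fcgr4 alike. Without Fcgr3 the differences were 2.22, 1.63 and -0.59. When per-kilobase levels were summed, the ratio of activating to inhibitory level was 2.23 ± 0.314, 3.80 ± 0.489 and 3.36 ± 0.280, which is 0.77 and 0.60 on the log2 scale above the control.

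Marker genes of cells that carry these receptors were compared between the types. The counts of listed genes here and below stand beside these shares of all genes tested. In B16-IFNA4 against B16-GFP tumors 31.3% rose and 34.1% fell, and in B16-IFNA9 against B16-GFP tumors 26.9% and 28.9%. Between the interferon types 10.5% were higher and 7.25% lower in B16-IFNA9. The macrophage marker counts against B16-GFP lay near these shares. Of 9 macrophage markers measured, 3 rose and 2 fell in B16-IFNA4 against B16-GFP tumors (median log2 difference -0.28). In B16-IFNA9 against B16-GFP tumors 3 rose and 0 fell (-0.05). Their summed level ran from 464.8 to 2055 CPM in B16-GFP, 1027 to 1741 CPM in B16-IFNA4 and 990.7 to 1893 CPM in B16-IFNA9 tumors, so the types overlapped. Aif1, an actin-bundling protein of macrophages, rose by 1.65 in B16-IFNA4 tumors (SE 0.173, edgeR adjusted p = 2.07e-09), while Mrc1, the mannose receptor, fell by 0.78 (SE 0.211, adjusted p = 0.00193).

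All 9 monocyte markers measured rose in B16-IFNA4 against B16-GFP tumors (median log2 difference 2.27) and 7 rose in B16-IFNA9 against B16-GFP tumors (1.65). In B16-IFNA9 against B16-IFNA4 tumors 6 were lower (-0.73). Their summed level was 196.2 to 616.3 CPM in B16-GFP, 1555 to 2951 CPM in B16-IFNA4 and 811.6 to 1864 CPM in B16-IFNA9 tumors. Ly6c2, which marks classical monocytes, was at 88.8 ± 31.4, 842.1 ± 131.9 and 453.8 ± 99.4 CPM in the 3 types. Ly6c2 and Ms4a4c are also expressed by other leukocytes, and their part in the member levels was not tested.

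Relative to the mean log2 level of the 9 macrophage markers, the members that passed did so in the same direction as their levels. In B16-IFNA4 against B16-GFP tumors the limma log2 difference was 2.48 for Fcgr1 (adjusted p = 3.16e-17), 1.97 for Fcgr4 (adjusted p = 1.42e-12) and 1.20 for Fcer1g (adjusted p = 1.32e-08), beside 20.8% of genes that rose. Fcgr3 fell by 0.59 (adjusted p = 0.00104), beside 25.1% that fell. In B16-IFNA9 against B16-GFP tumors it was 1.53 for Fcgr1 (adjusted p = 5.6e-11), 1.76 for Fcgr4 (adjusted p = 6.16e-11) and 0.66 for Fcer1g (adjusted p = 0.000615), beside 12.4% that rose. Relative to Cd68 alone the last did not pass (0.36, adjusted p = 0.0527), and relative to Csf1r alone the fall of Fcgr3 in B16-IFNA4 tumors did not pass (-0.30, adjusted p = 0.166). The median gene moved by -0.11 and -0.23 on this scale.

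Between B16-IFNA9 and B16-IFNA4 tumors, the level relative to macrophage markers was lower for Fcgr1 (-0.95, limma adjusted p = 2.65e-05) and Fcer1g (-0.53, adjusted p = 0.0166), beside 6.08% of genes. It was higher for Fcgr3 (0.52, adjusted p = 0.0165), beside 1.22%, a call that was lost with the replicate number as a block (adjusted p = 0.0526) and relative to Csf1r alone (0.41, adjusted p = 0.13). Relative to Cd68 alone, Fcer1g did not pass (-0.34, adjusted p = 0.325). Fcgr2b did not pass in any of the 3 comparisons, with log2 differences of 0.01 in each and intervals within -0.30 and 0.32. Relative to Cd68 alone it was lower in B16-IFNA4 than in B16-GFP tumors (-0.49, adjusted p = 0.0164), and it also passed relative to monocyte markers and Ptprc.

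Relative to the 9 monocyte markers, a denominator chosen after seeing the data, the picture differed. Fcgr1 did not pass, with log2 differences of 0.20 (limma adjusted p = 0.149), 0.18 (adjusted p = 0.206) and -0.02 (adjusted p = 0.87) in the 3 comparisons. Fcgr4 was -0.31 in B16-IFNA4 against B16-GFP tumors (adjusted p = 0.0315) and 0.41 in B16-IFNA9 against B16-GFP tumors (adjusted p = 0.00478). In B16-IFNA9 against B16-IFNA4 tumors it was 0.72 (adjusted p = 5.17e-05). Fcgr2b was -2.27 and -1.33, Fcgr3 -2.86 and -1.41, and Fcer1g -1.08 and -0.69 against B16-GFP, all past the threshold. Between B16-IFNA9 and B16-IFNA4 tumors Fcgr2b was 0.93 higher in B16-IFNA9 (adjusted p = 2.05e-06), Fcgr3 1.45 (adjusted p = 5.56e-10) and Fcer1g 0.39 (adjusted p = 0.00826).

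Relative to Ptprc, Fcgr1 was -0.12 in B16-IFNA4 against B16-GFP tumors (limma adjusted p = 0.563) and -0.43 in B16-IFNA9 against B16-GFP tumors (adjusted p = 0.0446). Fcgr4 was -0.63 (adjusted p = 0.00444) and -0.19 (adjusted p = 0.361). Fcgr3, Fcgr2b and Fcer1g were lower relative to Ptprc in both, from -3.18 to -1.29. In B16-IFNA9 against B16-IFNA4 tumors Fcgr1 did not pass relative to Ptprc (-0.31, adjusted p = 0.223), nor did Fcgr4 (0.44, adjusted p = 0.111) and Fcer1g (0.11, adjusted p = 0.67), while Fcgr2b (0.65, adjusted p = 0.0159) and Fcgr3 (1.17, adjusted p = 0.000124) were higher. For Fcgr1, Fcgr4, Fcgr2b and Fcer1g the direction in B16-IFNA4 against B16-GFP tumors thus turned with at least 1 leukocyte denominator, while for Fcgr3 it was negative with all 5 tried (macrophage markers, monocyte markers, Csf1r, Cd68 and Ptprc). The ratios to Fcgr2b, itself a gene of leukocytes, had nearly the values found relative to macrophage markers.

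**Figure D5:**
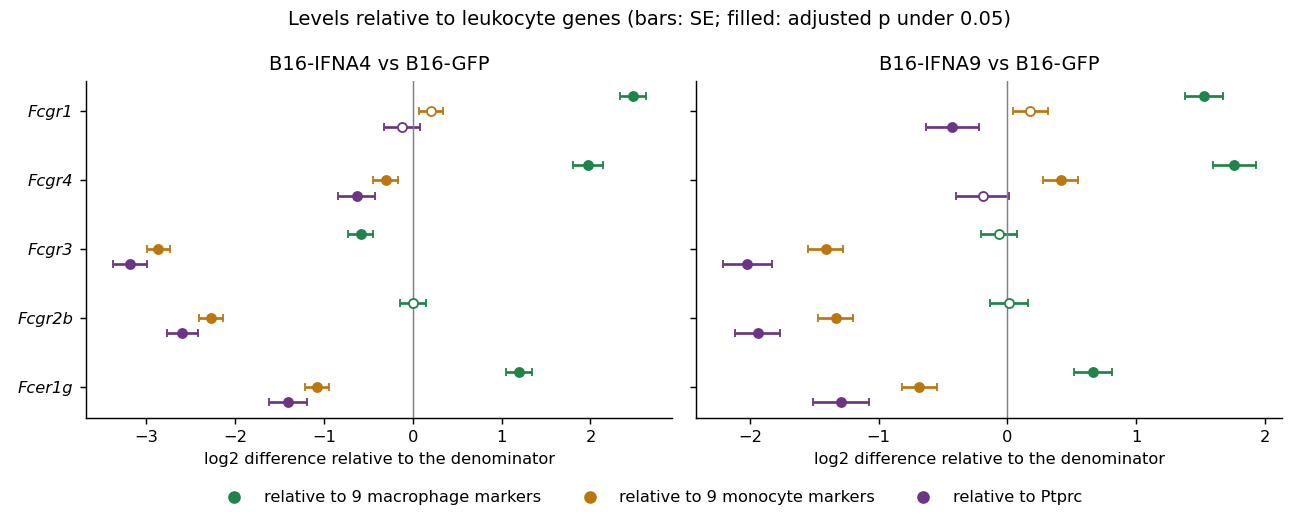
Log2 difference of each gene (y axis) from B16-GFP tumors, relative to 9 macrophage markers, 9 monocyte markers or Ptprc (x axis; bars, SE; filled, adjusted p under 0.05). Fcgr1 stands at 2.48 relative to macrophage markers, 0.20 relative to monocyte markers and -0.12 relative to Ptprc in B16-IFNA4 tumors.

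Markers of other cell types were compared as well. Of all genes tested, 31.3% rose and 34.1% fell in B16-IFNA4 against B16-GFP tumors. In B16-IFNA9 against B16-GFP tumors 26.9% rose and 28.9% fell. Counts near those shares do not show that a cell type differed. This holds for neutrophil and mast cell markers and, in B16-IFNA4 tumors, for dendritic cell markers. All 7 NK cell markers measured rose in both comparisons with B16-GFP (median log2 difference 4.43 and 3.81), with a summed level of 4.28 to 27.6 CPM in B16-GFP, 100.7 to 361.0 CPM in B16-IFNA4 and 58.1 to 216.9 CPM in B16-IFNA9 tumors. Among 9 T cell markers, 9 and 8 rose. Of 6 neutrophil markers tested, 2 rose and 3 fell in each of these comparisons, and Ly6g was under the filter. Of 8 dendritic cell markers, 3 rose and 1 fell in B16-IFNA4 tumors, and 6 rose and 1 fell in B16-IFNA9 tumors. Of 5 mast cell markers, 1 rose and 0 fell, then 1 rose and 1 fell.

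B cell genes were sparse. Cd79a and Ms4a1 were among those under the filter, and of 3 B cell markers tested 1 rose in each comparison with B16-GFP. Of 3 plasma cell markers, 1 rose in B16-IFNA4 and 0 in B16-IFNA9 tumors. Of 7 endothelial markers, 1 rose and 5 fell in B16-IFNA4 tumors, and 1 rose and 4 fell in B16-IFNA9 tumors. All 3 melanocyte markers measured fell in both, with a summed level of 7214 to 22820 CPM in B16-GFP, 2157 to 3630 CPM in B16-IFNA4 and 3367 to 8916 CPM in B16-IFNA9 tumors. The part of these cells in the member levels was not tested.

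The ligands of the receptors are IgG antibodies, and transcripts of their heavy chains were low. Ighg1 was at 0.487 ± 0.532 CPM in B16-GFP, 1.86 ± 0.543 CPM in B16-IFNA4 and 1.75 ± 0.641 CPM in B16-IFNA9 tumors. It was higher than in B16-GFP by a log2 difference of 1.90 in B16-IFNA4 tumors (SE 0.405, edgeR adjusted p = 0.000164) and of 1.82 in B16-IFNA9 tumors (SE 0.406, adjusted p = 0.000391). Antibody made elsewhere and carried in by blood is not measured by RNA of the tumor.

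Ighg2b and Ighg2c, which encode the chains of IgG2b and IgG2c, passed the test in B16-IFNA4 against B16-GFP tumors (log2 differences 4.61 and 4.44, edgeR adjusted p = 0.000207 and 0.00042). Their counts came from few tumors. B16-IFNA4 tumor 1 held 682 of the 883 Ighg2c counts of its type (77.2%) and tumor 10 held 101. For Ighg2b, tumor 10 held 423 of 699 counts (60.5%) and tumor 1 held 174. Without B16-IFNA4 tumor 1, Ighg2c fell under the filter. Without B16-IFNA4 tumor 10 the log2 difference of Ighg2b was 3.41 (edgeR adjusted p = 0.00152), and without B16-GFP tumor 8 it was 5.97 (adjusted p = 4.68e-05). For Ighg2c it was 5.06 without B16-GFP tumor 7, still past the threshold. Against B16-GFP tumors, B16-IFNA9 tumors had log2 differences of 0.54 for Ighg2b (adjusted p = 0.707) and -0.61 for Ighg2c (adjusted p = 0.697). Against B16-IFNA4 tumors they had -4.07 for Ighg2b (edgeR adjusted p = 0.00297) and -5.05 for Ighg2c (adjusted p = 0.00126). These values rest largely on the same few B16-IFNA4 tumors. Ighg2b and Ighg2c share some 50-base stretches (4.15% and 5.49% of theirs occur in another gene), and Ighg3 was under the filter.

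Genes of other Fc receptors moved in both directions. Of 10 tested, 7 rose and 2 fell in B16-IFNA4 against B16-GFP tumors (median log2 difference 1.22), and 6 rose and 2 fell in B16-IFNA9 against B16-GFP tumors (1.17). Trim21, the cytosolic Fc receptor and an interferon-induced gene, was at 18.7 ± 5.19, 79.0 ± 8.45 and 76.5 ± 11.8 CPM in the 3 types. It rose by 2.08 (SE 0.13, edgeR adjusted p = 3.03e-14) and 2.03 (SE 0.13, adjusted p = 1.74e-13) on the log2 scale. Fcrl5, an Fc receptor-like gene of B lineage cells, was at 0.321 ± 0.291 CPM in B16-GFP, 10.7 ± 4.11 CPM in B16-IFNA4 and 2.01 ± 1.35 CPM in B16-IFNA9 tumors (log2 differences 4.98 and 2.58, adjusted p = 3.84e-11 and 1.01e-05).

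Fcrls, an Fc receptor-like gene of resident macrophages, was lower in B16-IFNA4 tumors, at 16.8 ± 4.20 CPM against 31.3 ± 7.83 CPM in B16-IFNA9 tumors (log2 difference 0.90 for B16-IFNA9 against B16-IFNA4, edgeR adjusted p = 0.00245). Fcgrt, the neonatal Fc receptor that recycles IgG, fell by 1.30 in B16-IFNA4 (SE 0.181, adjusted p = 3.74e-07) and by 0.92 in B16-IFNA9 tumors (SE 0.179, adjusted p = 8.82e-05) against B16-GFP. Between the interferon types, 1 of the 10 was higher and 2 were lower in B16-IFNA9 tumors.

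A list of other signalling adaptors held Tyrobp, Cd247 and Cd79b, which carry ITAMs, and Hcst, which encodes DAP10 and carries a motif for PI3K instead. Of these 4, all but Cd79b, a B cell gene, rose in each comparison with B16-GFP (median log2 difference 1.25 and 0.68). Tyrobp, the DAP12 adaptor of myeloid and NK cells, was at 69.2 ± 27.4, 122.1 ± 22.0 and 97.9 ± 18.2 CPM, with log2 differences of 0.82 (SE 0.171, edgeR adjusted p = 0.000137) and 0.50 (SE 0.171, adjusted p = 0.0141). Cd247, the zeta chain of T and NK cells, had log2 differences of 2.67 (SE 0.275, adjusted p = 1.39e-09) and 2.30 (SE 0.273, adjusted p = 5.14e-08).

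A list of 17 other receptors held mostly partners of the FcR gamma chain. Of these, 13 had a matched row and 9 passed the filter and were tested. The 9 also held Clec7a (Dectin-1), which signals through its own tail, and Cd300lb, known mainly as a DAP12 partner, both among those that rose. Of the 9, 7 rose and 0 fell in B16-IFNA4 against B16-GFP tumors (median log2 difference 1.86). In B16-IFNA9 against B16-GFP tumors 7 rose and 1 fell (0.90). In B16-IFNA9 against B16-IFNA4 tumors 4 were lower. Ncr1, the NK cell receptor NKp46, rose by 4.66 (SE 0.327, edgeR adjusted p = 3.94e-13) and 4.14 (SE 0.322, adjusted p = 8.95e-12). Clec4e, the receptor Mincle, was at 24.1 ± 7.54 CPM in B16-IFNA4 and 9.83 ± 3.67 CPM in B16-IFNA9 tumors, a log2 difference of -1.29 (SE 0.225, adjusted p = 0.000138). Pira2 and Lilra6 also rose, but most of the sequence of Pira2 and part of that of Lilra6 is shared with other genes, so their counts are uncertain.

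Below the activating receptors, 20 of 24 signalling genes tested rose and 2 fell in B16-IFNA4 against B16-GFP tumors (median log2 difference 1.19). In B16-IFNA9 against B16-GFP tumors 17 rose and 2 fell (0.97). Syk, the kinase that binds the phosphorylated ITAM, rose by 0.72 (SE 0.147, edgeR adjusted p = 9.78e-05) and 0.58 (SE 0.147, adjusted p = 0.00147). Src, which many cell types express, fell by 0.60 (SE 0.142, adjusted p = 0.000558) and 0.47 (SE 0.142, adjusted p = 0.00625). Between the interferon types 1 of the 24 was higher and 4 were lower in B16-IFNA9 tumors, among them Vav1, a guanine nucleotide exchange factor of leukocytes (-0.86, SE 0.2, adjusted p = 0.00292).

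Genes of the inhibitory side of the pathway also rose. Of 8 inhibitory signalling genes tested, 6 rose and 0 fell in B16-IFNA4 and 5 rose and 0 fell in B16-IFNA9 against B16-GFP tumors (median log2 difference 0.47 and 0.28), and 2 were lower in B16-IFNA9 than in B16-IFNA4 tumors. Inpp5d, which encodes SHIP-1, was at 38.9 ± 12.8, 86.0 ± 14.4 and 72.2 ± 14.3 CPM (log2 differences 1.14 and 0.89, edgeR adjusted p = 1.18e-06 and 6.65e-05). Ptpn6, which encodes the phosphatase SHP-1, was at 69.9 ± 14.2, 177.1 ± 37.9 and 134.5 ± 28.4 CPM (1.34 and 0.94, adjusted p = 6.49e-10 and 8.49e-07).

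Other ITIM receptors were listed beside Fcgr2b, most of them of myeloid cells but also Cd22 of B cells. All 10 tested rose in B16-IFNA4 and 8 rose in B16-IFNA9 against B16-GFP tumors (median log2 difference 1.77 and 1.14), and 5 were lower in B16-IFNA9 than in B16-IFNA4 tumors. Among the 10, Pirb shares 34% of its 50-base stretches with other genes, so its counts are uncertain. Cd72, an inhibitory lectin-like receptor of B cells and some myeloid cells, was at 10.9 ± 2.97, 104.7 ± 26.8 and 45.0 ± 7.52 CPM (log2 differences 3.26 and 2.04, edgeR adjusted p = 4.38e-16 and 9.82e-12). Cd300lf was at 5.20 ± 1.84, 48.0 ± 11.7 and 23.2 ± 6.44 CPM (3.20 and 2.15, adjusted p = 1.62e-13 and 1.02e-09).

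Of 12 genes used in phagocytosis and the oxidative burst, 8 rose and 1 fell in each comparison with B16-GFP (median log2 difference 0.61 and 0.50), with a median of -0.16 between the interferon types. Cybb, the catalytic subunit of the phagocyte oxidase, was at 55.8 ± 20.9, 199.5 ± 55.9 and 170.2 ± 50.1 CPM (log2 differences 1.84 and 1.61, edgeR adjusted p = 1.01e-07 and 1.79e-06). Itgb2, the beta chain of the CR3 integrin, rose by 1.38 (SE 0.193, adjusted p = 3.75e-07) and 1.26 (SE 0.192, adjusted p = 3.33e-06).

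The members varied together from tumor to tumor. Correlations of log2 CPM over the 30 tumors, after removal of the type means, are given as a description, since all points share libraries and the leukocyte content of the tumor. Fcgr3 was most like Fcgr2b (r = 0.929, and 0.907 without B16-GFP tumor 7), the gene with which it shares sequence. Fcgr1 was closer to Fcgr4 (r = 0.852) than to Fcgr2b (r = 0.783), although in the B16-IFNA9 tumors alone the values were 0.879 and 0.885, and Fcgr4 was closer to Fcer1g (r = 0.838) than to Fcgr2b (r = 0.703).

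Over all genes tested, the 3 most like Fcgr1 were Slfn2 (r = 0.927), Cd300c2 (0.901) and Lyn (0.892). Those most like Fcgr2b were March1 (0.943), Btk (0.94) and Rassf4 (0.937). Beside Fcgr2b, Gng2 (0.928) and Ms4a8a (0.914) were most like Fcgr3. Gmfg (0.884), Ly6c2 (0.86) and Ms4a4c (0.859) were most like Fcgr4, and Alox5ap (0.947), Ly6c2 (0.911) and Cd52 (0.903) were most like Fcer1g. The monocyte marker Ly6c2 thus appears in the lists of Fcgr4 and Fcer1g. Without B16-GFP tumor 7 the value of Slfn2 with Fcgr1 was 0.876.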

How the data were processed

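RNA was taken from 30 whole tumors, 10 per type. The authors prepared stranded mRNA libraries, sequenced single-end reads of 50 bases, checked them with FastQC 0.11.3, aligned them with HISAT2 2.0.4 and deposited whole-number counts per gene made with summarizeOverlaps, without normalization. The build is named mm11 in the methods and mm10 in the submitters' processing notes. The annotation release, overlap mode, strand setting and treatment of reads with several alignments are not given in the sources used here. Coordinates and symbols came from GENCODE M21 (GRCm38), promoters from RefSeq.

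Libraries totalled 14598517 to 19788383 counts, so counting error was small for the members and large for the IgG genes. Genes whose mean count reached 10 were fitted over all 30 tumors with edgeR 4.0.16 (TMM, quasi-likelihood, no covariate) in R 4.3.3, at a Benjamini-Hochberg adjusted p of 0.05 over all genes. The common biological coefficient of variation was 0.281. Ratios to Fcgr2b and to marker means were tested with limma 3.58.1 (trend) on log2 CPM with a prior count of 2. The labels number the tumors 1 to 10 without naming the mouse of each, so p-values measure the spread between these tumors. No 2 libraries were duplicates: the chi-square per gene over 11436 genes was at least 14.1 for every pair within a type. Scripts were checked on simulated data. The alternatives were DESeq2 1.42.0, other scalings, filters, prior counts and denominators, a replicate block and each tumor left out. Named genes were, per list and comparison, the 3 called genes with the largest log2 difference, and Fcgrt, Syk, Src, Cd79b, Clec7a, Cd300lb, Cd22 and Pirb were named after their values were seen. A few genes taken by this rule are left unreported. The members and lists were chosen with earlier results of these data known. Listed genes without a matched row, such as Adgre1 and Rac2, were not analysed here.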

Additional observations from a re-analysis of the deposited data

Results flagged for a closer look

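Within each tumor type, 48 groups of 10 tumors were examined for a tumor whose gap to its nearest neighbour exceeded Dixon's 95% critical share of the range, and chance flags about 2.4 of them. There were 6 such values, in 5 tumors. B16-GFP tumor 7 had an Fcgr1 level of 3.59 log2 CPM, with the other B16-GFP tumors from 4.63 to 5.70. It also had a Ptprc level of 4.30 log2 CPM, with the others from 5.65 to 6.88. B16-IFNA9 tumor 5 had an Fcgr2b level of 6.82 log2 CPM, with the others from 7.45 to 8.07. Relative to macrophage markers on the log2 scale, Fcgr3 was at -0.15 in B16-IFNA4 tumor 3, with the others from -0.68 to -0.44. Fcgr4 was at -3.42 in B16-GFP tumor 8, with the others from -2.53 to -1.92, and at -1.11 in B16-IFNA4 tumor 8, with the others from -0.59 to -0.14.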

How the results depend on the processing

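The counts of members called were within 1.5 times of the main count under every alternative. For so few genes this range is wide. The count also does not show which members passed or in which direction, and both changed with the denominator, as given below. With each tumor left out, 4 and 3 members were called against B16-GFP in B16-IFNA4 and B16-IFNA9 tumors, and 2 to 3 between the interferon types. The mean activating to inhibitory log2 ratio differed by 0.77 and 0.60 from B16-GFP with summed per-kilobase levels, by 0.94 and 0.70 with all annotated exons (added after seeing the data), and by 2.22 and 1.63 without Fcgr3, where the interferon types differed by -0.59. The Fcer1g level passed between the interferon types with DESeq2 (-0.44, adjusted p = 0.0345) and in the 20 interferon tumors alone (-0.44, adjusted p = 0.00635).

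Directions relative to macrophage markers turned with other denominators. Relative to Ptprc, the log2 differences that turned were -0.12 (Fcgr1), -2.59 (Fcgr2b), -0.63 (Fcgr4) and -1.40 (Fcer1g) in B16-IFNA4 against B16-GFP tumors. They were -0.43, -1.94, -0.19 and -1.29 in B16-IFNA9 against B16-GFP tumors, and 0.44 (Fcgr4) and 0.11 (Fcer1g) in B16-IFNA9 against B16-IFNA4 tumors, where Fcgr1 no longer passed (-0.31, adjusted p = 0.223) and Fcgr2b now did (0.65, adjusted p = 0.0159). Relative to monocyte markers (added) they were -2.27 (Fcgr2b), -0.31 (Fcgr4) and -1.08 (Fcer1g), then -1.33 (Fcgr2b) and -0.69 (Fcer1g), then 0.72 (Fcgr4) and 0.39 (Fcer1g), and Fcgr2b now passed between the interferon types (0.93, adjusted p = 2.05e-06). Relative to Cd68 alone Fcgr2b was -0.49 (adjusted p = 0.0164) and -0.29 (adjusted p = 0.167) against B16-GFP, and Fcer1g no longer passed in B16-IFNA9 against B16-GFP (0.36, adjusted p = 0.0527) or B16-IFNA4 tumors (-0.34, adjusted p = 0.325). Relative to Csf1r alone Fcgr3 was 0.11 in B16-IFNA9 against B16-GFP tumors and Fcgr2b -0.10 between the interferon types. Relative to Csf1r alone, the fall of Fcgr3 in B16-IFNA4 tumors did not pass (-0.30, adjusted p = 0.166), nor did its difference between the interferon types (0.41, adjusted p = 0.13). The cause was not tested. With each tumor left out, uncalled Fcgr2b differences ranged from -0.0037 to 0.13 in level (B16-IFNA4 against B16-GFP) and from -0.047 to 0.071, -0.033 to 0.078 and -0.029 to 0.065 relative to macrophage markers, and uncalled differences of Ighg2b (B16-IFNA9 against B16-GFP) from -0.72 to 1.90 and of Ighg1 (between the interferon types) from -0.20 to 0.013.

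Tumors with the same replicate number did not vary together. The correlation of their deviations ran from -0.267 to 0.302, with a median of -0.05, and 4 of 30 were over 0.1. With a replicate block, 4, 3 and 2 members were called in level, and Fcgr3 relative to macrophage markers no longer passed between the interferon types (0.52, adjusted p = 0.0526).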
